A study of Mus musculus with 27 samples.

Results

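The 10 genes described here encode the subunits of the transcription factor NF-kB and its inhibitors. They were taken by gene symbol as 10 of the 55483 genes in a count table of RAW264.7, a macrophage-like cell line of the mouse by their membership of the family. Nfkb1, Nfkb2, Rel, Rela and Relb encode the 5 subunits. Nfkbia, Nfkbib and Nfkbie encode the inhibitors IkB-alpha, IkB-beta and IkB-epsilon, and Nfkbiz and Bcl3 encode the nuclear IkB-like proteins IkB-zeta and Bcl-3. Each symbol matched 1 row, and the 10 genes passed the low-count filter in each of the 12 comparisons made.

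NF-kB is a family of dimers that bind kB sites in DNA. In resting macrophages the dimers are held in the cytoplasm by IkB proteins. Toll-like receptor 4, which senses LPS (lipopolysaccharide of bacterial cell walls), activates the IkB kinase (IKK) complex, which marks IkB proteins for destruction and frees the dimers to enter the nucleus. Several NF-kB subunits and IkB proteins are themselves encoded by NF-kB target genes, so the pathway forms feedback loops.

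Cells were harvested after 6 h in DMSO, the solvent, in LPS at 1 µg/ml with DMSO (called LPS here), or in LPS at 1 µg/ml with TM7nox at 10 µM (LPS+TM7nox). TM7nox belongs to the tanshinone mimics, compounds made to interfere with the binding of RNA by HuR, a protein that attaches to mRNA at stretches rich in U or in A and U. Each treatment had 4 libraries of total RNA, 4 of RNA recovered with an anti-HuR antibody (ribonucleoprotein immunoprecipitation, RIP) and 1 of RNA recovered with control IgG, which was replicate 3 in each treatment. No group received TM7nox without LPS, and 1 established cell line was used. The labels number the replicates but do not say that they were separate cultures, so p-values measure the spread between these samples, which may be technical. Levels come from bulk cells, where more RNA per cell and more cells expressing a gene cannot be told apart.

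Depth ranged from 2728534 counts in RNA DMSO replicate 1 to 41449233 in RIP LPS+TM7nox replicate 3. RNA DMSO replicate 1 was the shallowest library, and the next lowest RNA library held 16258731 counts. The 8 macrophage markers checked each had a median over 1 CPM (the count scaled to library size) in RNA, from Mrc1 at 4.49 to Lyz2 at 3092 CPM. None of 8 markers of other cell types did, and Epcam, the epithelial marker, was at 0 in the 12 RNA libraries. Levels below are CPM on 1 common scale (TMM) over the 27 libraries. Values of 1 group are given in the order of replicates 1 to 4. Fold changes are log2 values with their standard errors (SE) from edgeR's quasi-likelihood test, with p-values adjusted over all genes tested (FDR), and a gene was called at an FDR under 0.05.

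LPS against DMSO in total RNA shows how the mRNA levels of the pathway's own genes differed after 6 h in LPS. Activation of NF-kB itself was not measured here. The 10 genes were higher in LPS, and in each of the 10 the lowest LPS library lay above the highest DMSO library. Among the 12369 genes tested, 20.2% were called higher, and 19.8% had each LPS library above each DMSO library. The increases ranged from 1.40-fold for Rela to 67.0-fold for Nfkbiz. The median log2 fold change was 2.04 over the 5 subunits and 3.21 over the 5 inhibitors and IkB-like genes, beside -0.04 over all genes tested.

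**Figure D1:**
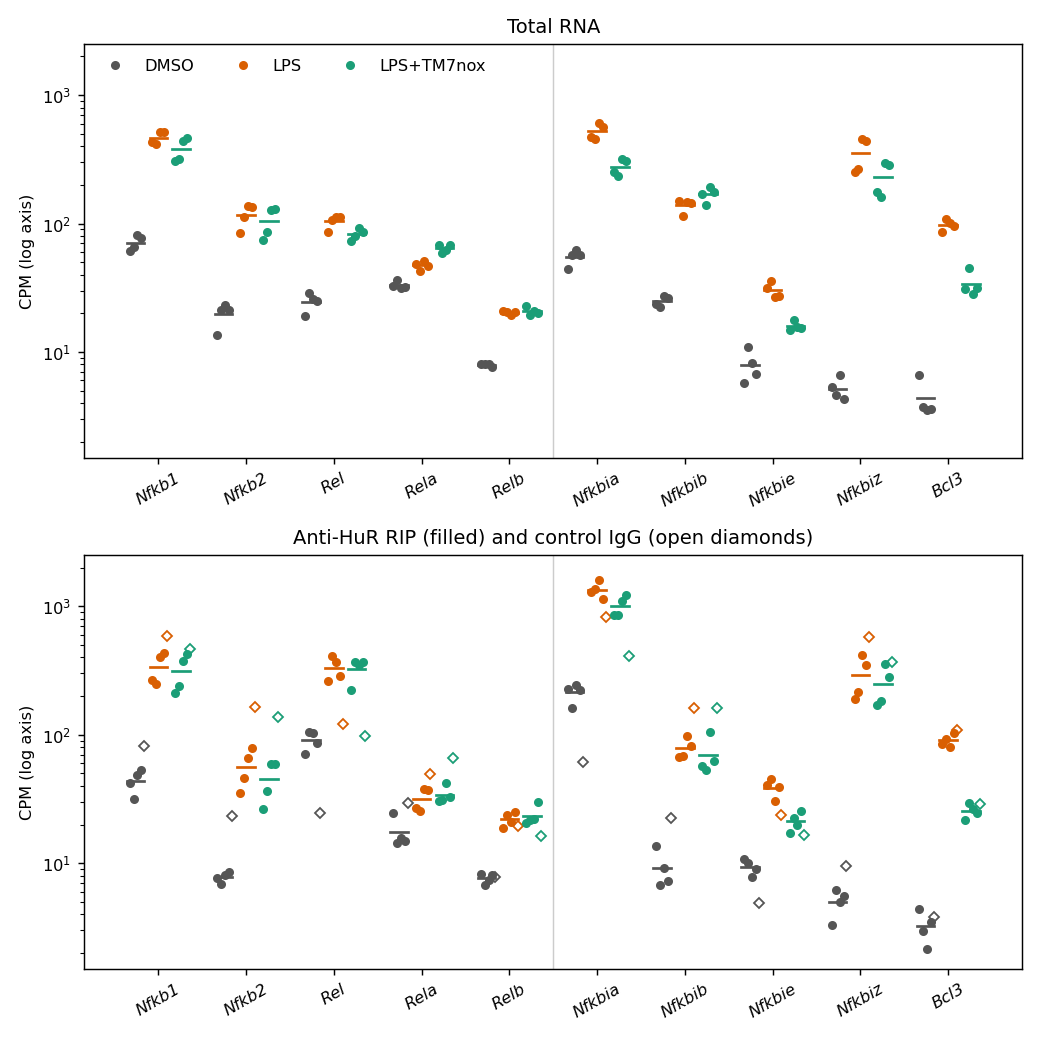
Levels of the 10 genes in every library, in CPM on a log axis, for total RNA (upper panel) and for anti-HuR RIP with control IgG (lower panel). Points are libraries, horizontal bars are group means of 4 libraries, and open diamonds are the single IgG library of a treatment. In RNA the LPS libraries lie above the DMSO libraries for each gene, and the LPS+TM7nox libraries of Nfkbia, Nfkbie and Bcl3 lie below those of LPS.

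Among the subunits, Nfkb1 (Ensembl ENSMUSG00000028163, chr3:135290264-135397742, minus strand, GRCm39, as are the positions that follow) encodes p105, the precursor of the p50 subunit. Its RNA level was 61.1, 65.1, 81.0 and 76.6 CPM in DMSO, 432, 413, 511 and 512 in LPS and 307, 317, 440.0 and 466 in LPS+TM7nox. The DMSO libraries lay far below those of both other treatments, while LPS and LPS+TM7nox overlapped, and replicates 3 and 4 were higher than 1 and 2 within each treatment. The LPS change was 2.68 (SE 0.164, FDR = 2.04e-08), or 6.43-fold. Nfkb2 (ENSMUSG00000025225, chr19:46292759-46303812, plus strand), which encodes p100, the precursor of p52, stood at 13.6, 21.3, 23.3 and 21.1 CPM in DMSO, 85.0, 112, 136 and 136 in LPS and 74.6, 86.0, 128 and 129.9 in LPS+TM7nox. It rose 5.70-fold, which is 2.51 (SE 0.215, FDR = 5.37e-07) in log2 terms. Its exons share 1933 bases with Psd on the opposite strand, and whether counting used the strand is not given in the sources used here, so its level is less certain.

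Rel (ENSMUSG00000020275, chr11:23686847-23721264, minus strand) encodes c-Rel, a subunit with an activation domain that is prominent in blood cells. Its level in RNA was 19.1, 28.7, 25.8 and 24.8 CPM in DMSO, 86.4, 107, 112 and 112 in LPS and 72.5, 79.6, 92.9 and 85.7 in LPS+TM7nox, and the LPS change was 2.04 (SE 0.131, FDR = 3.06e-08), or 4.12-fold. Relb (ENSMUSG00000002983, chr7:19339017-19363425, minus strand) encodes the subunit that pairs with p52 in the non-canonical branch of the pathway. It was measured at 8.06, 8.08, 8.07 and 7.59 CPM in DMSO, 20.8, 20.4, 19.4 and 20.3 in LPS and 22.7, 19.2, 20.8 and 20.3 in LPS+TM7nox, a 2.50-fold rise in LPS of 1.32 (SE 0.113, FDR = 5.11e-07) on the log2 scale. The 4 LPS libraries of Relb lay within 19.4 to 20.8 CPM, a narrower band than that of the other subunits.

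Rela (ENSMUSG00000024927, chr19:5687493-5698161, plus strand), which encodes p65, the main transactivating partner of p50, changed least. Its level was 32.6, 36.1, 31.4 and 31.8 CPM in DMSO, 48.2, 42.8, 51.4 and 46.8 in LPS and 67.5, 59.3, 61.9 and 67.7 in LPS+TM7nox. The lowest LPS library stood above the highest DMSO library, and the rise of 1.40-fold came with a log2 change of 0.49 (SE 0.103, FDR = 0.00158). In replicates 1 and 2 alone it was 0.41 (FDR = 0.248). Scaled to library totals instead of TMM it was 0.20 (FDR = 0.191). That scaling moved the median of all genes to -0.32, and relative to this median Rela stood 0.53 higher.

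Among the inhibitors, Nfkbia (ENSMUSG00000021025, chr12:55535332-55539432, minus strand) encodes IkB-alpha, which enters the nucleus and removes NF-kB dimers from DNA. Its RNA level was 44.5, 57.2, 62.1 and 57.1 CPM in DMSO, 471, 451, 604 and 563 in LPS and 250.1, 236, 317 and 307 in LPS+TM7nox. No library of LPS overlapped with DMSO, and the change was 3.21 (SE 0.150, FDR = 2.67e-09), or 9.23-fold. Nfkbib (ENSMUSG00000030595, chr7:28457486-28466937, minus strand), which encodes IkB-beta, rose 5.45-fold, by 2.45 (SE 0.139, FDR = 1.04e-08) on the log2 scale, from levels of 23.7, 22.3, 27.5 and 26.2 CPM in DMSO, 150.3, 114, 147 and 144 in LPS and 168, 138, 193 and 177 in LPS+TM7nox. Its exons overlap those of Ccer2, Sirt2 and Gm71901 on the opposite strand by up to 338 bases. Nfkbie (ENSMUSG00000023947, chr17:45866585-45874661, plus strand), which encodes IkB-epsilon, stood at 5.72, 10.9, 8.27 and 6.70 CPM in DMSO, 31.4, 35.6, 26.6 and 27.3 in LPS and 14.9, 17.9, 15.8 and 15.4 in LPS+TM7nox. It rose 3.67-fold, by 1.88 (SE 0.176, FDR = 1.26e-06) on the log2 scale.

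The IkB-like genes had the largest increases of the 10. Nfkbiz (ENSMUSG00000035356, chr16:55631738-55659262, minus strand) encodes IkB-zeta, a nuclear co-activator that binds p50 dimers at secondary response genes. It stood at 5.30, 4.61, 6.56 and 4.27 CPM in DMSO, 252, 265, 456 and 441 in LPS and 176, 159.7, 298 and 287 in LPS+TM7nox. The increase in LPS came to 6.07 (SE 0.311, FDR = 4.61e-09) in log2 terms, or 67.0-fold, place 109 from the top of 12369 genes. Bcl3 (ENSMUSG00000053175, chr7:19541553-19557570, minus strand), whose protein binds p50 and p52 dimers in the nucleus, was at 6.57, 3.73, 3.54 and 3.58 CPM in DMSO, 85.5, 109, 101 and 95.8 in LPS and 31.2, 44.9, 28.3 and 31.4 in LPS+TM7nox. It rose 23.7-fold, by 4.57 (SE 0.224, FDR = 3.60e-09) on the log2 scale. Its exons share 314 bases with Gm16175 on the opposite strand, so the strand setting bears on its level too. The same holds for Nfkb1 (270 bases with Gm65585), Rela (185 with Gm56632) and Nfkbia (141 with Gm36634). The first DMSO library of Bcl3, at 6.57 CPM, rested on 31 counts and was the highest of its group.

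Promoters are shown because the 10 genes rose together in LPS and kB sites are the binding motif of the family. RefSeq's promoter table on GRCm38.p6, from 250 bases before to 50 after each start, held 9 promoters of 7 of the genes, 3 of them for Nfkb2. Promoters of Nfkb1, Relb and Nfkbiz were not analysed here. The kB consensus, by its name, was searched on both strands, and capitals below join matches that overlap. It was found in 7 of these 9 promoters, belonging to 5 of the 7 genes, Nfkb2, Rel, Nfkbia, Nfkbie and Bcl3, and in those of Rela and Nfkbib it was not in the window. The match in the third Nfkb2 promoter is the same site as 1 of the 2 in the second. Of 32851 RefSeq promoters of that length, 8.46% held it. The looser form GGGNNNNNCC was in 50.8%. The 250 bases before the start of Nfkbia follow, with the match in capitals, on chr12:55492648-55492897, minus strand.

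Nfkbia: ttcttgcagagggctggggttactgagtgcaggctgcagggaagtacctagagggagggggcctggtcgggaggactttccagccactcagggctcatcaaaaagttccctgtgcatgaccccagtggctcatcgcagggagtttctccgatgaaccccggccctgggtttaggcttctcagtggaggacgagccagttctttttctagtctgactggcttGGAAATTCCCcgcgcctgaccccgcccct

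In windows of 30 bases around the match, again in capitals, the other promoters read as follows on GRCm38.p6. The first 2 Nfkb2 lines come from 1 promoter, with matches that begin 39 and 11 bases before the start. The next 2 come from a second promoter, with matches that begin 236 bases before and 10 bases after its start. That of Rel begins 92 and that of Nfkbie 106 bases before the start, and that of Bcl3 begins 2 bases after it.
Nfkb2 (chr19:46304688-46304717, plus strand): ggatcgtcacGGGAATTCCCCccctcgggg
Nfkb2 (chr19:46304716-46304745, plus strand): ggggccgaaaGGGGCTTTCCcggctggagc
Nfkb2 (chr19:46305449-46305478, plus strand): tccgacggcaGGAATGTCCCcacaaaagcc
Nfkb2 (chr19:46305695-46305724, plus strand): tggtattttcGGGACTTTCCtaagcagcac
Rel (chr11:23771042-23771071, minus strand): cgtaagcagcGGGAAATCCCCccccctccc
Nfkbie (chr17:45555584-45555613, plus strand): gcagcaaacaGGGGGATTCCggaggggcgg
Bcl3 (chr7:19822734-19822763, minus strand): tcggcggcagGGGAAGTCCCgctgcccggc

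A match is a description of letters and not a bound site, and binding was not measured here.

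Anti-HuR RIP from LPS and DMSO was compared in the same way. The values are the level of each mRNA relative to the other RNA in the pull-down. They are not corrected for its level in total RNA, and recovery relative to total RNA was tested separately below. The 10 genes were higher in LPS without overlap of the libraries, where 23.5% of 13614 genes tested were called higher and 21.6% were higher without overlap. The changes were again largest for Nfkbiz at 5.85 (SE 0.350, FDR = 3.10e-09) and Bcl3 at 4.78 (SE 0.230, FDR = 2.79e-10) on the log2 scale. Nfkbib changed by 3.07 (SE 0.261, FDR = 1.39e-07) in RIP beside 2.45 in RNA, and Nfkbia by 2.63 (SE 0.202, FDR = 4.41e-08) beside 3.21. Among the subunits the change was 2.92 (SE 0.269, FDR = 3.39e-07) for Nfkb1, 2.83 (SE 0.280, FDR = 7.30e-07) for Nfkb2 and 1.84 (SE 0.214, FDR = 4.44e-06) for Rel. Relb stood at 1.52 (SE 0.172, FDR = 3.18e-06) and Nfkbie at 2.02 (SE 0.191, FDR = 4.50e-07).

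Rela again had the smallest change, 0.84 (SE 0.204, FDR = 0.00332). It was 0.38 (FDR = 0.299) in replicates 1 and 2 alone, where the first DMSO library was at 24.8 CPM and the other 3 lay between 14.4 and 15.8. With library totals, which moved the median of all genes in RIP to -0.63, it was 0.22 (FDR = 0.408), and 0.85 relative to that median.

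**Figure D2:**
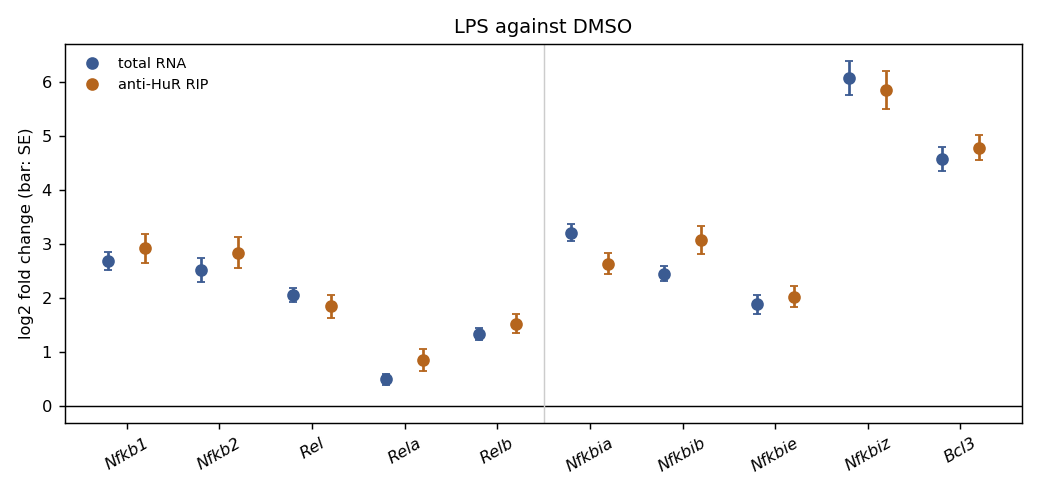
Log2 fold change in LPS against DMSO for the 10 genes, in total RNA and in anti-HuR RIP. Points are the fitted values from 4 libraries per group, bars are standard errors, and filled points are called at an FDR under 0.05. Each point is filled and above 0, from 0.49 for Rela to 6.07 for Nfkbiz in RNA.

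LPS+TM7nox against LPS asks what differed when the HuR compound was added to LPS. In total RNA, Bcl3, Nfkbia and Nfkbie fell and Rela rose, while the other 6 genes did not pass the test. Of all genes tested, 6.4% were called lower and 7.37% higher, beside 3 and 1 of the 10 members. Bcl3 was 2.87-fold lower, by -1.52 (SE 0.189, FDR = 0.000133) on the log2 scale, from 85.5 to 109 CPM in LPS to 28.3 to 44.9 in LPS+TM7nox. Nfkbia was 1.88-fold lower, by -0.91 (SE 0.139, FDR = 0.000669), from 451 to 604 CPM to 236 to 317. Nfkbie was 1.89-fold lower, by -0.92 (SE 0.168, FDR = 0.00226), from 26.6 to 35.6 CPM to 14.9 to 17.9. For these 3 inhibitor or IkB-like genes the LPS+TM7nox libraries lay below those of LPS without overlap, as did those of 10.4% of all genes tested.

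Rela was 1.36-fold higher in LPS+TM7nox than in LPS, at 0.44 (SE 0.102, FDR = 0.0105), with 59.3 to 67.7 CPM against 42.8 to 51.4 and no overlap, where 11.3% of all genes tested were higher without overlap. Without the low-count filter, which tests 30529 genes, the same change of Rela had an FDR of 0.101. Nfkbib was at 0.29 (SE 0.130, FDR = 0.177). The other subunits were at -0.28 (SE 0.153, FDR = 0.267) for Nfkb1, -0.16 (SE 0.201, FDR = 0.693) for Nfkb2, -0.33 (SE 0.124, FDR = 0.0984) for Rel and 0.04 (SE 0.107, FDR = 0.864) for Relb. The 95% interval was -0.17 to 0.25 for Relb and -0.55 to 0.24 for Nfkb2. Nfkbiz was at -0.61 (SE 0.244, FDR = 0.120), its groups overlapping, at 159.7 to 298 CPM in LPS+TM7nox and 252 to 456 in LPS.

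Libraries with the same replicate number deviated together, and with the number as a block 8 of the 10 genes were called in this comparison, 6 lower and 2 higher. The block added Nfkb1 at -0.30 (FDR = 0.0213), Rel at -0.33 (FDR = 0.00910) and Nfkbiz at -0.62 (FDR = 0.00396) to the lower genes. It added Nfkbib at 0.29 (FDR = 0.0132) to the higher ones. In the blocked fit 3091 of all genes were called, where the fit without it called 1704. Nfkb2 and Relb passed in neither.

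The calls also differed between pairs of replicate numbers, while the directions of the 4 called genes did not. In replicates 1 and 2 alone no member was called, and 168 of all genes were. Bcl3 was at -1.35 (FDR = 0.0766) there, Nfkbia at -0.93 (FDR = 0.0709), Nfkbie at -1.04 (FDR = 0.140) and Rela at 0.47 (FDR = 0.380). In replicates 3 and 4 alone 7 members were called, among 3489 genes. There Bcl3 was at -1.70 (FDR = 1.64e-06) and Nfkbia at -0.88 (FDR = 7.96e-05). Rel, Nfkbib and Nfkbiz were the 3 added, with Nfkbib at 0.37 (FDR = 0.00986).

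In anti-HuR RIP, LPS+TM7nox was below LPS for Bcl3 and Nfkbie, without overlap, and no member was higher. Of all genes tested, 7.61% were called lower and 8.64% higher, and 8.29% were lower without overlap. Bcl3 was at 84.9, 93.4, 80.8 and 104 CPM in LPS and at 21.8, 29.7, 26.6 and 24.6 in LPS+TM7nox, 3.65-fold lower, or -1.87 (SE 0.200, FDR = 2.23e-05) in log2 terms. Nfkbie was at 40.8, 45.1, 30.2 and 38.9 CPM in LPS and 17.2, 22.4, 19.9 and 25.4 in LPS+TM7nox, 1.89-fold lower, at -0.92 (SE 0.185, FDR = 0.00341). The Nfkbie change was -0.61 (FDR = 0.147) in replicates 3 and 4 alone.

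Nfkbia in RIP, at 1284, 1371, 1597 and 1145 CPM in LPS and 853, 859, 1106 and 1229 in LPS+TM7nox, overlapped between the groups. Its change of -0.46 (SE 0.191, FDR = 0.113) did not pass the test, and with the replicate block it was -0.47 (FDR = 0.0288) and passed. Rela, which rose in RNA, was at 0.05 (SE 0.202, FDR = 0.893) in RIP, with a 95% interval of -0.34 to 0.45. The other subunits ranged from -0.37 for Nfkb2 to 0.04 for Relb, and Nfkbib and Nfkbiz were at -0.23 and -0.29.

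**Figure D3:**
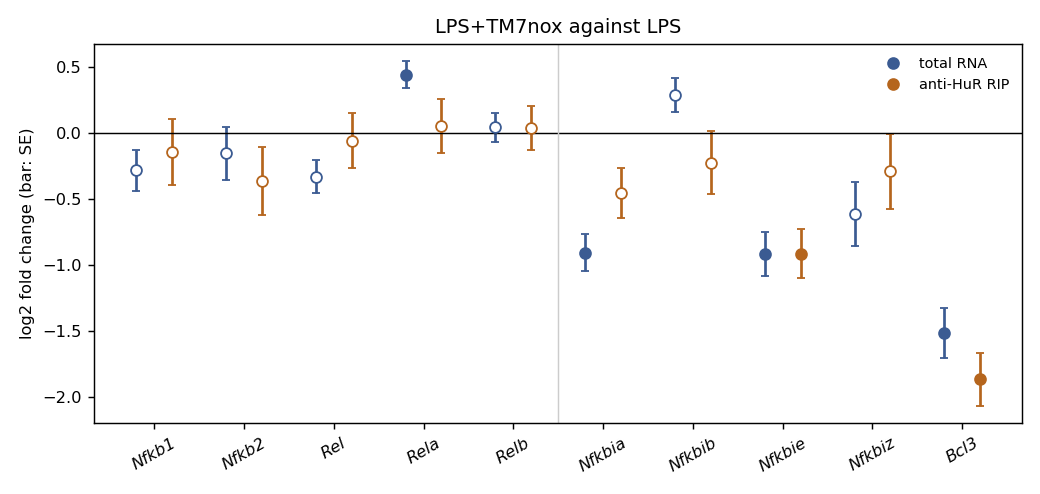
Log2 fold change in LPS+TM7nox against LPS for the 10 genes, in total RNA and in anti-HuR RIP. Points are fitted values from 4 libraries per group without the replicate block, bars are standard errors, filled points are called at an FDR under 0.05 and open points are not. Bcl3 has the lowest values in both assays, -1.52 and -1.87, and Rela in RNA is the filled point above 0.

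LPS+TM7nox against DMSO shares its libraries with the 2 comparisons above, and its values are given beside them. The 10 genes were higher than in DMSO in RNA, where 23.7% of all genes were called higher, and in RIP, where 25.1% were. No library of LPS+TM7nox overlapped with DMSO for any of the 10 in either assay, and of all genes 22.6% in RNA and 23.6% in RIP were higher without overlap. In RNA, Bcl3 was 8.26-fold above DMSO in LPS+TM7nox and 23.7-fold in LPS, and Nfkbia 4.92-fold and 9.23-fold. Nfkbie was 1.95-fold and 3.67-fold above DMSO. Rela was 1.91-fold above DMSO in LPS+TM7nox and 1.40-fold in LPS, and Nfkbib 6.65-fold and 5.45-fold. In replicates 1 and 2 alone the Nfkbie change from DMSO in RNA was 0.93 (FDR = 0.0641). In RIP with library totals the change from DMSO was 0.27 (FDR = 0.316) for Rela and 0.45 (FDR = 0.0545) for Nfkbie, where the median of all genes was -0.63. In replicates 1 and 2 alone it was 0.57 (FDR = 0.106) for Rela.

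Anti-HuR RIP was then compared with total RNA within each treatment, to rank the members by recovery with HuR relative to the typical gene. Under TMM a value of 0 is the recovery of a typical gene, not an absence of binding. Rel and Nfkbia stood above total RNA in each treatment, and Nfkb2, Rela and Nfkbib below it. The background is large: in DMSO 37% of genes tested were called higher and 33.4% lower, in LPS 32.9% and 30.8%, and in LPS+TM7nox 35.2% and 34.8%. Beside it 2 members were higher and 4 lower in DMSO, 2 and 3 in LPS, and 2 and 4 in LPS+TM7nox. Nothing is read from these counts, given that background.

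Rel in RIP stood at 70.5, 104, 104 and 85.6 CPM in DMSO, 259.9, 411, 369.6 and 288 in LPS and 222, 371, 349 and 369.7 in LPS+TM7nox. These libraries lay above the RNA libraries of the same treatment without overlap, and the log2 ratios were 1.98 (SE 0.203, FDR = 4.08e-09), 1.67 (SE 0.199, FDR = 7.93e-08) and 1.95 (SE 0.201, FDR = 4.60e-09) in DMSO, LPS and LPS+TM7nox. Nfkbia in RIP stood at 229, 161, 244 and 225 CPM in DMSO, 1284, 1371, 1597 and 1145 in LPS and 853, 859, 1106 and 1229 in LPS+TM7nox, also above RNA without overlap. Of the 14311 genes tested, 32.9% in DMSO, 29.5% in LPS and 32.2% in LPS+TM7nox lay above RNA without overlap. The Nfkbia ratios were 2.06 (SE 0.189, FDR = 5.84e-10), 1.37 (SE 0.184, FDR = 5.44e-07) and 1.83 (SE 0.187, FDR = 3.84e-09) in the same order.

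Nfkb2 had RIP levels of 7.65, 6.88, 8.07 and 8.54 CPM in DMSO, 35.3, 46.3, 65.9 and 78.6 in LPS and 26.4, 36.5, 58.9 and 58.9 in LPS+TM7nox, and its ratios to RNA were -1.27, -1.06 and -1.26. Nfkbib, at 13.6, 6.75, 9.22 and 7.23 CPM in DMSO, 67.4, 67.9, 98.0 and 81.2 in LPS and 57.1, 52.8, 105 and 62.5 in LPS+TM7nox, had ratios of -1.33, -0.82 and -1.32. Rela, at 24.8, 14.4, 15.7 and 14.8 CPM in DMSO, 27.0, 25.5, 37.6 and 37.4 in LPS and 30.4, 30.8, 42.4 and 32.5 in LPS+TM7nox, had ratios of -0.81, -0.57 and -0.94. These 9 values had FDRs of 3.78e-06 to 0.00351. All 3 genes were thus recovered below the typical gene.

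The other 5 genes passed the test in 1 treatment or in none. Nfkb1, at 41.8, 31.9, 48.8 and 53.3 CPM in DMSO, 266, 250.5, 400.4 and 429.8 in LPS and 212, 242, 376 and 425 in LPS+TM7nox in RIP, had ratios of -0.59 (SE 0.231, FDR = 0.0265) in DMSO, -0.47 (SE 0.229, FDR = 0.0731) in LPS and -0.33 (SE 0.229, FDR = 0.206) in LPS+TM7nox. Its call in DMSO was lost without RIP DMSO replicate 1 or 2 or without RNA DMSO replicate 3 or 4, with FDRs of 0.0533, 0.0987, 0.0728 and 0.0619. It was also lost with DESeq2, at -0.44 (FDR = 0.0625), and with relative log expression scaling, at -0.44 (FDR = 0.0694). Without RIP LPS replicate 4 the LPS ratio of Nfkb1 was -0.60 (FDR = 0.0281). Blocked by replicate number, Nfkb1 passed in LPS at -0.50 (FDR = 0.00071) and in LPS+TM7nox at -0.34 (FDR = 0.0137). Nfkbie had ratios of 0.32, 0.37 and 0.38, which did not pass, and of which the last 2 passed with the block (FDR = 0.0391 and 0.0368). Without RNA DMSO replicate 2, RIP LPS replicate 3, or RIP LPS+TM7nox replicate 1 or 3, the Nfkbie ratio of that treatment passed, with FDRs of 0.0312, 0.0261, 0.0189 and 0.0405. With DESeq2 it passed in each treatment, at 0.48 (FDR = 0.0226), 0.55 (FDR = 0.00633) and 0.60 (FDR = 0.00267). It also did with relative log expression scaling, at 0.49 (FDR = 0.0226), 0.55 (FDR = 0.0104) and 0.61 (FDR = 0.00491).

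Bcl3 had ratios of -0.21, -0.10 and -0.43, the last with an FDR of 0.0437. That call was lost without any 1 of the 4 RIP LPS+TM7nox libraries and without RNA LPS+TM7nox replicate 2 or 4, with FDRs of 0.0510 to 0.228. It was also lost with DESeq2, at -0.20 (FDR = 0.371), and with relative log expression scaling, at -0.20 (FDR = 0.370). In replicates 1 and 2 alone it was -0.58 (FDR = 0.119), and in replicates 3 and 4 alone -0.31 (FDR = 0.185). Relb (ratios 0.04, 0.14 and 0.15) and Nfkbiz (0.06, -0.28 and 0.05) did not pass in any treatment. With DESeq2 Relb passed in LPS at 0.31 (FDR = 0.0324) and in LPS+TM7nox at 0.37 (FDR = 0.00979), and with relative log expression scaling in LPS+TM7nox at 0.38 (FDR = 0.0184). Scaled to library totals, Relb, Nfkbie and Nfkbiz were called below RNA, and the median of all genes then stood at -0.72, -1.06 and -1.07 in DMSO, LPS and LPS+TM7nox. Relative to that median Relb was at -0.0040, 0.19 and 0.22, and Nfkbie at 0.30, 0.42 and 0.44. Rel and Nfkbia stayed above RNA under that scaling too, at smaller ratios. Rel was at 1.22, 0.66 and 0.95, and Nfkbia at 1.28, 0.36 (FDR at most 0.0385) and 0.84. Relative to the median Rel was at 1.95, 1.72 and 2.02, and Nfkbia at 2.01, 1.42 and 1.92.

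**Figure D4:**
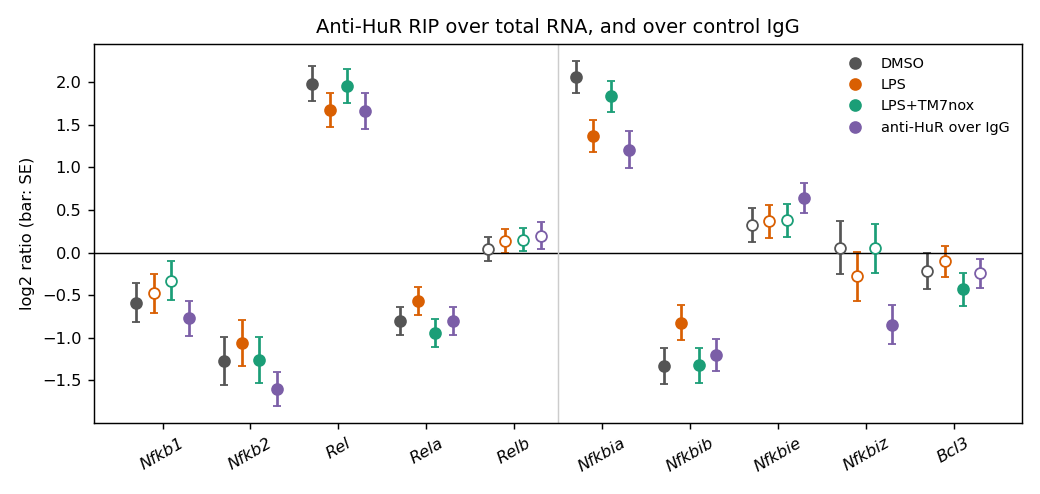
Log2 ratio of anti-HuR RIP to total RNA in each treatment, and of anti-HuR to control IgG over the 3 treatments, for the 10 genes. Bars are standard errors, filled points are called at an FDR under 0.05 and open points are not, and 0 is the typical gene under TMM scaling. Rel and Nfkbia lie above 1 in each series of points. Nfkb2, Rela and Nfkbib lie below 0 in each with filled points. Nfkb1 and Bcl3 also lie below 0 in each, with some points open.

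Whether recovery relative to RNA changed with treatment was tested directly, as the RIP change minus the RNA change. No member was called for LPS against DMSO, where 0.0419% of 14311 genes were called (6 genes). No member was called for LPS+TM7nox against LPS, where 0.00699% were (1 gene). By edgeR's unadjusted p, 1 member was under 0.05 in the first test, among 1041 of the 14311 genes, and 0 in the second, among 771, and DESeq2 called 0 members in each. For LPS against DMSO the value farthest from 0 was that of Nfkbia, -0.69 (SE 0.257, FDR = 0.563), with a 95% interval of -1.19 to -0.18, and Nfkbib had 0.51 (SE 0.292, FDR = 0.757). For LPS+TM7nox against LPS it was that of Nfkbib, -0.50 (SE 0.288, FDR = 0.871), and Nfkbia had 0.46 (SE 0.257, FDR = 0.871). For Bcl3 the second value was -0.33, with an interval of -0.85 to 0.19. Standard errors of 0.197 to 0.424 over these tests set the size that was detectable in the fits without the replicate block. With the block, 50 of all genes were called in the first test and 2 in the second. The lowest FDR of Nfkbia in the first test was 0.0792 over all alternative fits.

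AU-rich stretches of the 3′ untranslated region (3′ UTR) are where HuR is known to bind, and were read from the Ensembl canonical transcripts on GRCm39. The nonamer ttatttatt, whose core is the pentamer attta, was in the 3′ UTRs of Rel, Relb and Nfkbia and not in those of the other 7. Of 10991 coding genes tested, 9.23% held it. The pentamer occurred 12 times in Rel, 4 times in Nfkb1 and Nfkbiz, 3 times in Nfkb2 and 2 times in Relb and Nfkbia. Nfkbib, Nfkbie, Rela and Bcl3 had none, where 73.5% of those coding genes had at least 1 and the median was 2. Rel and Nfkbia, which lay above RNA in RIP, hold the nonamer, and so does Relb, whose ratio did not pass. Whether the nonamer goes with recovery over all genes was not tested. Windows of 30 bases around the 3 nonamers follow, with the pentamer in capitals, as 5′ to 3′ sequence of the transcript's strand written with T.
Rel (chr11:23687833-23687862, minus strand): ctcccagactttATTTAttttttttagctt
Relb (chr7:19339829-19339858, minus strand): aaaaaagattttATTTAttttatgtatgtg
Nfkbia (chr12:55536392-55536421, minus strand): ggaccacgttttATTTAttgtgcttttgat

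The 3′ UTR of Rel was also the longest of the 10, at 5418 bases, and that of Nfkbib the shortest, at 71, beside a median of 1354 over the coding genes. U made up 32.8% of the 3′ UTR in Rel, 31.4% in Nfkbia, 32.2% in Nfkb1 and 34.7% in Nfkbiz. It made up 20.9% in Nfkb2, 22.3% in Nfkbie and 22.9% in Bcl3, beside a median of 29.2%. Per kilobase of 3′ UTR, Nfkb1 had 4.70 pentamers, Nfkbia 3.91, Nfkbiz 2.95 and Rel 2.21. Of these, Nfkb1 was below RNA in RIP from DMSO, Nfkbiz did not pass in any treatment, and Nfkbia and Rel were above RNA in each.

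Control IgG gives the background of the pull-down. Against IgG, with treatment as a covariate, Rel, Nfkbia and Nfkbie were higher with anti-HuR and Nfkb1, Nfkb2, Rela, Nfkbib and Nfkbiz lower. Of 14973 genes tested, 33.8% were called higher and 34.2% lower. Rel stood at 1.66 (SE 0.209, FDR = 8.00e-07), Nfkbia at 1.21 (SE 0.218, FDR = 6.32e-05) and Nfkbie at 0.64 (SE 0.178, FDR = 0.00358). The lower genes ranged from -1.60 (SE 0.199, FDR = 7.02e-07) for Nfkb2 to -0.77 (SE 0.204, FDR = 0.00243) for Nfkb1. Nfkbiz, whose ratio to RNA did not pass, was at -0.84 (SE 0.230, FDR = 0.00313) against IgG. Relb was at 0.20 (SE 0.156, FDR = 0.261) and Bcl3 at -0.24 (SE 0.168, FDR = 0.206).

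The single IgG libraries of DMSO, LPS and LPS+TM7nox held Rel at 24.7, 122 and 97.5 CPM, below each anti-HuR library of the same treatment. Nfkbia in IgG was at 61.3, 821 and 407 CPM, below the anti-HuR libraries in each treatment and above the RNA libraries in LPS and LPS+TM7nox. Nfkbiz in IgG, at 9.45, 572 and 366 CPM, lay above both the RNA and the anti-HuR libraries. The LPS pattern of the RNA was thus present in the IgG libraries too, with Bcl3 at 3.79, 109.6 and 28.8 CPM.

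IgG libraries carry replicate number 3, so the antibody and the replicate number are partly mixed. With the replicate block Nfkbie was no longer called against IgG, at 0.35 (FDR = 0.0863), and Bcl3 was, at -0.48 (FDR = 0.0268). Scaled to library totals, which put the median of all genes at -1.02, Nfkbia was at 0.17 (FDR = 0.431) and 1.19 relative to that median.

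To compare levels between genes, CPM was divided by the length of the canonical transcript in kilobases. In RNA from DMSO the order of the mean levels per kilobase was Nfkbia (35.0 ± 4.76), Nfkbib (18.2 ± 1.72), Nfkb1 (15.1 ± 2.00) and Rela (12.1 ± 0.789, SD, n = 4 each). The ranges of Nfkbib and Nfkb1 overlapped, as did those of Nfkb1 and Rela. Nfkbie, Rel, Nfkb2, Relb, Bcl3 and Nfkbiz followed, between 3.21 and 1.28 CPM per kilobase. In LPS the order was Nfkbia (331 ± 46.3), Nfkbib (102 ± 12.2), Nfkb1 (99.3 ± 11.1), Nfkbiz (87.4 ± 27.2) and Bcl3 (48.4 ± 4.81). The ranges of Nfkbib, Nfkb1 and Nfkbiz overlapped there. This order depends on the length. With the union of all exons Nfkb1 measures 12848 bases and not 4704. By that length Nfkbiz held 14.8% of the inhibitor and IkB-like sum in LPS and Nfkbib 14.2%. In LPS+TM7nox the first 4 were Nfkbia (176 ± 25.6), Nfkbib (124 ± 16.9), Nfkb1 (81.4 ± 17.5) and Nfkbiz (56.9 ± 17.9), where the ranges of Nfkb1 and Nfkbiz overlapped and those of Nfkbia, Nfkbib and Nfkb1 did not.

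Shares within each list show the shift in makeup. Of the summed subunit level per kilobase in RNA, Nfkb1 held 42.2% ± 3.41 in DMSO, 64.7% ± 1.35 in LPS and 58.9% ± 2.94 with TM7nox added (SD over 4 libraries). Rela held 34.2% ± 3.49, 11.4% ± 0.990 and 17.5% ± 2.91, and the 3 treatments did not overlap. With the union of all exons as the length, Rela held 44.3% in DMSO and Nfkb1 24.2%, so their order in DMSO depends on the length used. With both lengths the Rela share was lower and the Nfkb1 share higher in LPS than in DMSO.

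Of the summed inhibitor and IkB-like level in RNA, Nfkbia held 58.3% ± 3.04 in DMSO, 57.0% ± 0.453 in LPS and 46.3% ± 0.505 in LPS+TM7nox. Nfkbib held 30.5% ± 2.50, 17.6% ± 2.21 and 32.6% ± 1.97. Its LPS+TM7nox libraries, at 31.1 to 35.5%, lay above those of LPS, at 16.2 to 20.9%, and overlapped with DMSO. Nfkbiz held 2.15% ± 0.386 in DMSO and 14.8% ± 2.77 in LPS, and Bcl3 3.72% ± 1.67 and 8.46% ± 1.52. In RIP from DMSO, Nfkbia held 90.9% ± 1.77 of the inhibitor and IkB-like sum. Rel held 38.1% ± 7.49 of the subunit sum there, and 8.85% ± 1.00 in RNA from DMSO.

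In RNA the sum of the 5 inhibitor and IkB-like genes was divided by the subunit sum. The ratio was 1.68 ± 0.0459 in DMSO, 3.77 ± 0.144 in LPS and 2.78 ± 0.154 with TM7nox added (SD over 4 libraries). The libraries of the 3 treatments did not overlap, at 1.65 to 1.74, 3.60 to 3.95 and 2.60 to 2.95. With the union of exons the means were 1.87, 5.01 and 3.44, in the same order. These are ratios of mRNA levels and hold no measure of the proteins. Their numerator includes Nfkbiz and Bcl3, at 2.15% and 3.72% of it in DMSO and 14.8% and 8.46% in LPS by canonical length. It is thus not a measure of the inhibitors alone.

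**Figure D5:**
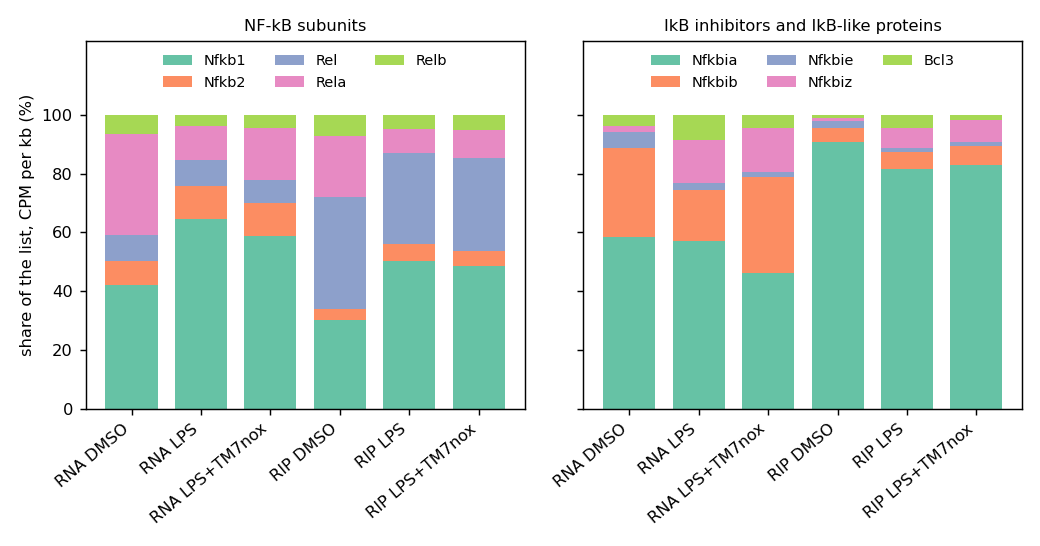
Mean share of each gene in the summed level of the 5 subunits (left) and of the 5 inhibitors and IkB-like genes (right), in percent of CPM per kilobase of canonical transcript, for RNA and RIP groups of 4 libraries. Bars are stacked shares. Rel takes more of the subunit bar in RIP than in RNA. Nfkbib takes more of the inhibitor and IkB-like bar in RNA from LPS+TM7nox than from LPS.

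The genes around the members were read from 3 textbook lists. Of 19 genes of the IKK complex and its upstream activators, 11 were higher in LPS than in DMSO and 1 was lower, beside 20.2% and 21.7% of all genes. Their median log2 fold change was 0.40, beside -0.04 over all genes. Ikbke, a kinase related to the IKK subunits, rose from 11.2 ± 2.55 to 101 ± 13.4 CPM (SD, n = 4), by 3.13 (SE 0.198, FDR = 2.78e-08). Map3k8, the kinase Tpl2 that p105 holds inactive, rose by 2.55 (SE 0.174, FDR = 6.20e-08). Malt1, a scaffold protease, rose by 2.54 (SE 0.269, FDR = 4.28e-06) and Tbk1, another IKK-related kinase, by 1.24 (SE 0.0959, FDR = 2.04e-07). The lower gene was Tab1, which encodes a partner of the kinase TAK1, at -1.05 (SE 0.301, FDR = 0.0118). Tab1, and in the other 2 lists Traf3, Tax1bp1, Plau, Bcl2l1 and Sod2, were chosen after their values were seen.

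In LPS+TM7nox, 3 of these 19 were lower than in LPS and 1 was higher, beside 6.4% and 7.37% of all genes, with a median of -0.08. Map3k8 fell from 32.7 ± 4.63 to 13.8 ± 2.36 CPM on average, which is -1.24 (SE 0.162, FDR = 0.000207) in log2 terms, and Ikbke by -1.01 (SE 0.180, FDR = 0.00194). Ube2n, a ubiquitin-conjugating enzyme of the pathway, was at -0.39 (SE 0.111, FDR = 0.0305). Ikbkg, which encodes the regulatory IKK subunit NEMO, was higher at 0.85 (SE 0.225, FDR = 0.0214).

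Of 20 other negative regulators, 12 were higher and 1 was lower in LPS than in DMSO, beside 20.2% and 21.7% of all genes, with a median of 0.50 beside -0.04. Tnfaip3, which encodes the deubiquitinase A20, changed most, from 8.86 ± 1.30 to 254 ± 74.6 CPM, by 4.79 (SE 0.253, FDR = 5.69e-09). Its partner Tnip1 rose by 2.79 (SE 0.230, FDR = 3.68e-07), Tnip3 by 1.85 (SE 0.164, FDR = 7.07e-07) and Nfkbid, which encodes a further IkB-like protein, by 2.22 (SE 0.198, FDR = 7.60e-07). The lower gene was Traf3, at -0.76 (SE 0.126, FDR = 0.000224). In LPS+TM7nox, 4 of the 20 were lower and 2 higher than in LPS, beside 6.4% and 7.37% of all genes, with a median of 0.03. Tnip3 changed by -1.42 (SE 0.161, FDR = 7.35e-05), Tnfaip3 by -1.19 (SE 0.215, FDR = 0.00203), Nfkbid by -1.14 (SE 0.188, FDR = 0.00112) and Tnip2 by -0.59 (SE 0.181, FDR = 0.0434) on the log2 scale. The 2 higher genes were Tax1bp1, at 0.48 (SE 0.0992, FDR = 0.00546), and Traf3, at 0.42 (SE 0.125, FDR = 0.0399).

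Of 24 textbook target genes, 21 were tested, since Il12b, Cxcl1 and Vcam1 had at most 9 counts in an RNA library. In LPS 20 were higher and 1 was lower, beside 20.2% and 21.7% of all genes, with a median of 4.42 beside -0.04. Csf2 was at 0 counts in the 4 DMSO libraries and at 88 to 446 in LPS, at least 335-fold higher when 3 counts over the DMSO group are taken as the floor. The list's median was 4.42 with Csf2 at that bound. Il1b rose by 10.51 (SE 0.688, FDR = 3.93e-08), Il6 by 9.33 (SE 1.08, FDR = 9.55e-06) and Ccl5 by 9.18 (SE 0.421, FDR = 2.26e-09), all cytokine or chemokine genes with at most 4.18 CPM in a DMSO library, and Il6 had 8 counts over that group. The lower gene was Plau, which encodes urokinase, at -2.07 (SE 0.464, FDR = 0.00238). In LPS+TM7nox 5 targets were lower and 1 was higher than in LPS, beside 6.4% and 7.37% of all genes, with a median of -0.30. Il1b was at -1.83 (SE 0.448, FDR = 0.0144), Nos2, the inducible nitric oxide synthase, at -1.03 (SE 0.236, FDR = 0.00980) and Irf1 at -0.77 (SE 0.241, FDR = 0.0480). The other 2 lower targets were Bcl2l1, at -0.61 (SE 0.157, FDR = 0.0188), and Sod2, at -0.42 (SE 0.116, FDR = 0.0264). The chemokine gene Cxcl2 was higher at 1.62 (SE 0.345, FDR = 0.00629).

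Over the 12 RNA libraries, the log2 levels of the members ran most closely together for Nfkb1 and Nfkbiz, with a Pearson r of 0.996 (n = 12). Rela was the farthest from 7 of the other 9, with r as low as 0.508 against Nfkbie. These libraries fall into DMSO and LPS clusters, so r is given as a description. By the same measure the 2 nearest of 8893 other genes were Col5a3 and Milr1 for Nfkb1, Edn1 and AC133103.1 for Nfkb2 and Slfn1 and Eng for Rel. They were Gtpbp2 and Tcirg1 for Rela and Ifi203-ps and Abtb2 for Relb. For the inhibitors they were Upp1 and Serpinb2 for Nfkbia, Mvp and Fbxo38 for Nfkbib and Mrpl52 and Mmp14 for Nfkbie. They were Lcp2 and Tnfaip2 for Nfkbiz and Cebpd and Msr1 for Bcl3. Their r lay between 0.977 and 0.998.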

How the data were processed

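Total RNA, anti-HuR RIP and IgG libraries of RAW264.7 cells were deposited by the authors as 1 table of raw read counts per gene for 27 libraries. FastQC 0.11.9, STAR, HTSeq, DESeq2 and GRCm39 are named in the submitters' processing notes. The strand setting of the counting is not given in the sources used here. Members and gene lists were chosen with earlier results of these data known.

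The test was edgeR's quasi-likelihood test on these counts (version 4.0.16, R 4.3.3, TMM scaling, low-count filter with a minimum count of 10, Benjamini-Hochberg adjustment over all genes tested, threshold 0.05). RNA and RIP were fitted separately for treatment, and together for RIP over RNA and its change. Anti-HuR against IgG had treatment as a covariate. Standard errors are the fold change over the square root of F. The 95% intervals use the normal multiplier of the SE and are somewhat narrower than the F test would give. The precision of low levels is set by depth.

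Same-numbered libraries deviated together: the correlation of their deviations was 0.194 to 0.449 in 12 of 12 RNA pairs and 0.262 to 0.543 in 12 of 12 RIP pairs, and over 0.1 in 58 of 60 pairs of both. Alternatives were DESeq2 1.42.0, relative log expression scaling, library totals, no filter, the replicate block, pairs of replicate numbers and leaving out each library. The length as the union of exons was added after seeing the data. All 10 members are named. From each list up to 4 called genes with the largest change are named. Tab1, Traf3, Tax1bp1, Plau, Bcl2l1 and Sod2 were added to these after their values were seen. For each member the 2 genes of highest r with a mean of at least 5 CPM are named.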

Additional observations from a re-analysis of the deposited data

Results flagged for a closer look

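In 4 of the 60 groups of 4 libraries tested, 1 library of a member stood far from the other 3, judged by its gap over the group's range. Chance flags about 1 in 20 groups.

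Bcl3 in RNA DMSO replicate 1 was at 6.57 CPM, where the others were at 3.54 to 3.73. That library was the shallowest, and the value rests on 31 counts. Rel in RIP LPS+TM7nox replicate 1 was at 222 CPM, where the others were at 349 to 371. Rela in RIP DMSO replicate 1 was at 24.8 CPM, where the others were at 14.4 to 15.8. Relb in RNA DMSO replicate 4 was at 7.59 CPM, where the others were at 8.06 to 8.08.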

How the results depend on the processing

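Of 2030 alternative values of the members' fold changes, 1895 kept their direction and their side of the threshold, 39 came to pass the threshold, 32 no longer passed it and 64 changed direction. Of these 64, 54 passed the test in neither fit. The other 10 passed it with library totals in place of TMM: for RIP over RNA in DMSO, LPS and LPS+TM7nox, Relb was at -0.73, -0.87 and -0.86 and Nfkbie at -0.43, -0.64 and -0.63. Nfkbiz was at -0.71 in DMSO and -0.91 in LPS+TM7nox, and against IgG Relb was at -0.83 and Nfkbie at -0.40. That scaling called 10 members in each of the 3 treatments, among 10890, 10968 and 11227 of 14311 genes, and its median over all genes is given in the report.

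For LPS+TM7nox against LPS in RNA, 8 members were called with the replicate block, 0 in replicates 1 and 2 alone and 7 in replicates 3 and 4 alone. In RIP, 1 was called in replicates 3 and 4 alone, among 1070 of all genes. The cause was not tested. In RNA, Rel was at -0.35 (FDR = 0.0431) with DESeq2 and -0.37 (FDR = 0.0478) with library totals, and Nfkbiz at -0.61 (FDR = 0.00328) without the low-count filter. Over these fold changes the replicate block left 109 on their side of the threshold, brought 10 past it and lost 1. Of all genes, 3091 were called with the block in RNA and 4576 in RIP, where the fits without it called 1704 and 2212. For LPS against DMSO in RNA, 5190 genes were called, and 1668 in replicates 1 and 2 alone. For LPS+TM7nox against DMSO these were 5850 and 2246, and for LPS against DMSO in RIP 6090 and 3392. For the change of RIP over RNA in LPS against DMSO, 6 genes were called, 67 by DESeq2 and 50 with the block. In RIP the inhibitor and IkB-like sum over the subunit sum was 4.82 ± 0.571 in DMSO, 7.55 ± 1.24 in LPS and 5.82 ± 0.653 in LPS+TM7nox (SD). The LPS libraries, at 5.82 to 8.74, overlapped with those of LPS+TM7nox, at 5.33 to 6.77. With the union of exons the means were 5.15, 9.07 and 7.01.

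The direction changes that passed in neither fit were these. In replicates 1 and 2 alone, for LPS+TM7nox against LPS in RIP Relb was at -0.054, for RIP over RNA in DMSO Relb was at -0.0072, for the change of RIP over RNA in LPS against DMSO Nfkb1 was at -0.0496, Nfkb2 at -0.082 and Rela at -0.091 and for the change of RIP over RNA in LPS+TM7nox against LPS Relb was at -0.028 and Nfkbie at -0.0796. In replicates 3 and 4 alone, for LPS+TM7nox against LPS in RIP Rel was at 0.13 and Rela at -0.0098. With DESeq2, for RIP over RNA in LPS Bcl3 was at 0.073. With relative log expression scaling, for RIP over RNA in LPS Bcl3 was at 0.073. With library totals, for the change of RIP over RNA in LPS against DMSO Nfkb1 was at -0.098, Nfkb2 at -0.011, Relb at -0.14, Nfkbie at -0.21 and Bcl3 at -0.10. Without the low-count filter, for RIP over RNA in DMSO Relb was at -0.18 and Nfkbiz at -0.17, for RIP over RNA in LPS+TM7nox Relb was at -0.025 and Nfkbiz at -0.094 and for the change of RIP over RNA in LPS+TM7nox against LPS Relb was at -0.088 and Nfkbie at -0.081. Leaving out 1 library at a time, these signs changed: for LPS+TM7nox against LPS in RNA, Relb ran from -0.0071 to 0.072. For LPS+TM7nox against LPS in RIP, Relb ran from -0.099 to 0.11, Nfkb1 from -0.33 to 0.017, Rel from -0.14 to 0.092 and Rela from -0.055 to 0.15. For RIP over RNA in DMSO, Relb ran from -0.014 to 0.088 and Nfkbiz from -0.077 to 0.21. For RIP over RNA in LPS+TM7nox, Nfkbiz ran from -0.10 to 0.26. For the change of RIP over RNA in LPS+TM7nox against LPS, Nfkbie ran from -0.087 to 0.14, Relb from -0.093 to 0.11, Nfkb2 from -0.36 to 0.037 and Nfkb1 from -0.0012 to 0.34. For the change of RIP over RNA in LPS against DMSO, Nfkbie ran from -0.15 to 0.24 and Nfkb1 from -0.0035 to 0.33.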
